A study of Mus musculus with 24 samples.

Results

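The liver of 3 WT male mice was set against the brain, heart and skeletal muscle of the same 3 animals, on 12 of the 24 arrays of a study of RAP1, a telomere protein. The mice came from a line in which CRISPR/Cas9 had introduced the I312R change into *Rap1* (*Terf2ip*) and which had been back-crossed to C57BL6 mice (C57BL/6N in the study's methods). The WT animals carried no changed allele, and the labels give no treatment. WT1 was 5 months old, and WT2 and WT3 were 2 months old. The remaining 12 arrays held the same tissues of *Rap1* KI/KI males of matched ages, with KI1 at 5 months and KI2 and KI3 at 2 months. They were used here to see which liver differences recurred, for single values set beside those of WT mice, and in an alternative fit of all 24 arrays. Cy3-labelled RNA was hybridized to 1-color Agilent mouse arrays, with 1 array for each mouse and tissue. Levels are log2 signals scaled within each array to its 75th percentile: a probe at 0 is as bright as that percentile, and 1 unit is a doubling. Of 55681 probes, 38539 were well above background on all 3 arrays of at least 1 tissue and were tested with limma, and 17631 named genes were represented by their brightest tested probe. A gene was called higher or lower in the liver only if it differed in the same direction, at an adjusted p under 0.05, from the brain, from the heart and from the muscle separately. The smallest difference of a gene is its level in the liver minus that in the highest of these 3 tissues or, where the gene was called lower, in the lowest of them. Where a tissue was not well above background on any of its arrays, the lowest signal that counted as well above background stands in for its level, so that such a difference is a lower bound and medians over lists include such bounds. The p-values measure the spread between 3 mice per tissue.

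The liver is built mostly of hepatocytes. These cells make most of the proteins of the blood plasma, form bile acids and bile, release glucose during fasting, turn ammonia into urea and modify drugs and steroids for excretion. Around them lie Kupffer cells (the resident macrophages), the perforated endothelium of the sinusoids, stellate cells that store retinol esters, and the epithelium of the bile ducts. Brain, heart and muscle are electrically excitable tissues that burn glucose, fatty acids and ketone bodies, part of which the liver supplies. In such bulk tissue, fewer cells of a type and less RNA per cell cannot be told apart.

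Before the comparison, 2 arrays stood apart. Transcripts of plasma proteins are made by hepatocytes, and the median level of 25 of them was 8.55, 8.91 and 8.42 in the livers of WT1, WT2 and WT3. In the brain it was -1.91 in WT1, against -4.48 and -4.43 in WT2 and WT3. In the heart it was 0.58 in WT2, against -1.73 and -1.65 in WT1 and WT3, and in the muscle it was -2.07, -2.75 and -1.59. The WT1 brain shared its slide with the livers, but so did the KI1 brain, where the median was -4.39. The WT2 heart was on another slide. The levels of liver transcripts in these 2 arrays make the differences from the brain and the heart smaller rather than larger. With both arrays left out, the median difference of the 25 genes changed from 12.33 to 12.83 against the brain and from 9.45 to 10.17 against the heart. All livers and the WT1 brain lay on 1 slide, the other brains and hearts on 2 others, and the muscles on 1 of these. RNA of liver and brain was extracted with 1 kit and that of heart and muscle with another, so that kit and tissue cannot be told apart for the heart and the muscle. The kit was the same for the liver and the brain. *Terf2ip*, the gene changed in the line, lay at 2.07, 1.17 and 1.56 in the WT livers and did not pass the test against any tissue (adjusted p = 0.76, 0.52 and 0.56).

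Of the 17631 genes, 3567 (20.2%) were higher in the liver than in each other tissue and 2576 (14.6%) were lower than in each. Over probes, 7033 (18.2%) were higher and 4646 (12.1%) lower. All livers lay on the slide that held a single other WT array, and with the slide as a block 4900 were higher and 2445 lower. Only 3921 of the 7033 and 2286 of the 4646 kept their call with this block. A filter on all 12 arrays left 25201 of the 38539 probes to test, and 4913 of these were higher and 2918 lower. Taken singly, 40.7% of the probes were higher and 30.1% lower than in the brain, 27.7% and 25.9% than in the heart, 29.3% and 29% than in the muscle, and 33.6% and 32.9% than the mean of the 3. The demand on each tissue removed many genes that a comparison with the average would have kept. Against the mean of the other tissues, 6249 genes (35.4%) were higher, and 42.9% of these, 2682 genes, were not higher than each. The loss was 59.4% among the 6348 genes (36%) below that mean. The smallest difference was at least 2 log2 units for 42.7% of the higher genes and for 40.7% of the lower ones. It was at least 5 log2 units for 522 genes, 14.6% of those higher, and for 116 genes, 4.5% of those lower. A group of 180 higher genes was not well above background on any of the 9 other arrays, and 511 lower genes were not well above background on any liver array. The differences of both groups are lower bounds, which limits the shares at large differences. Among the 2660 higher genes measured on all 12 arrays, the nearest tissue was the heart for 42.3%, the muscle for 34.3% and the brain for 23.4%. The WT2 heart and the WT1 brain, which stood apart, enter these tissue means, and the shares were not recomputed without them.

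The 12 genes with the largest smallest difference among those measured in all tissues were *Cyp2d9*, *Cyp2a4*, *Slco1b2*, *Akr1c6*, *Hrg*, *Apom*, *Azgp1*, *Plg*, *Fbp1*, *Proc*, *Uox* and *Cyp2c70*. *Cyp2d9* (NM_010006), a steroid hydroxylase with higher expression in male mice, lay at 7.27, 7.76 and 7.72 in the livers. It lay at -5.56, -5.85 and -5.38 in the brains, at -4.30, -3.74 and -4.08 in the hearts and at -3.90, -4.03 and -4.11 in the muscles. The 3 livers were far above all 9 other arrays, by 9270-fold, 3160-fold and 3100-fold on average, and the standard error of each difference was 0.23 (adjusted p = 1.8e-11, 5e-11 and 2.6e-11). *Slco1b2* (NM_020495), the carrier that brings organic anions and bile acids from the blood into hepatocytes, lay at 8.33, 8.41 and 8.04 in the livers and at -1.35 or below elsewhere. *Hrg* (histidine-rich glycoprotein), *Plg* (plasminogen) and *Proc* (protein C) are secreted into plasma, and their livers exceeded each other tissue by at least 10.87 log2 units. *Fbp1* (fructose-1,6-bisphosphatase, a step of gluconeogenesis) lay at 8.76, 9.14 and 8.65 in the livers. *Uox* (urate oxidase, which breaks down uric acid) lay at 8.32, 8.72 and 7.92. The WT2 heart was the highest heart in all 12 genes, and the WT1 brain was the highest brain in 9 of them.

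The 12 leading genes that were not well above background on any of the 9 other arrays were *Hgd*, *Crp*, *Glyat*, *Cyp1a2*, *F13b*, *Keg1*, *Elovl3*, *Abcc2*, *Ttc36*, *Cyp4a32*, *Cyp3a41b* and *Hsd17b6*. For them the fold is a lower bound, taken against the lowest signal that counted as well above background on each array. Close relatives of P450 genes on this list and the one before, such as *Cyp3a41b* and *Cyp2a4*, may hybridize to the same probe. *Hgd* (NM_013547), which opens the ring of homogentisate in tyrosine breakdown, lay at 6.0, 5.99 and 5.89 in the livers, which was at least 5310-fold above the brain, at least 2890-fold above the heart and at least 2160-fold above the muscle. *Cyp1a2* (NM_009993), the caffeine-metabolizing P450 of the hepatocytes around the central vein, lay at 4.99, 5.91 and 6.02. *F13b* (NM_031164), the carrier subunit of clotting factor XIII, lay at 5.73, 4.91 and 5.06, and *Abcc2* (NM_013806), the pump that exports conjugated bilirubin into bile, at 4.86, 4.73 and 4.42. The livers of each of these genes lay within about 1 unit of each other. The plot of the liver genes shows all 24 by array.

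**Figure D1:**
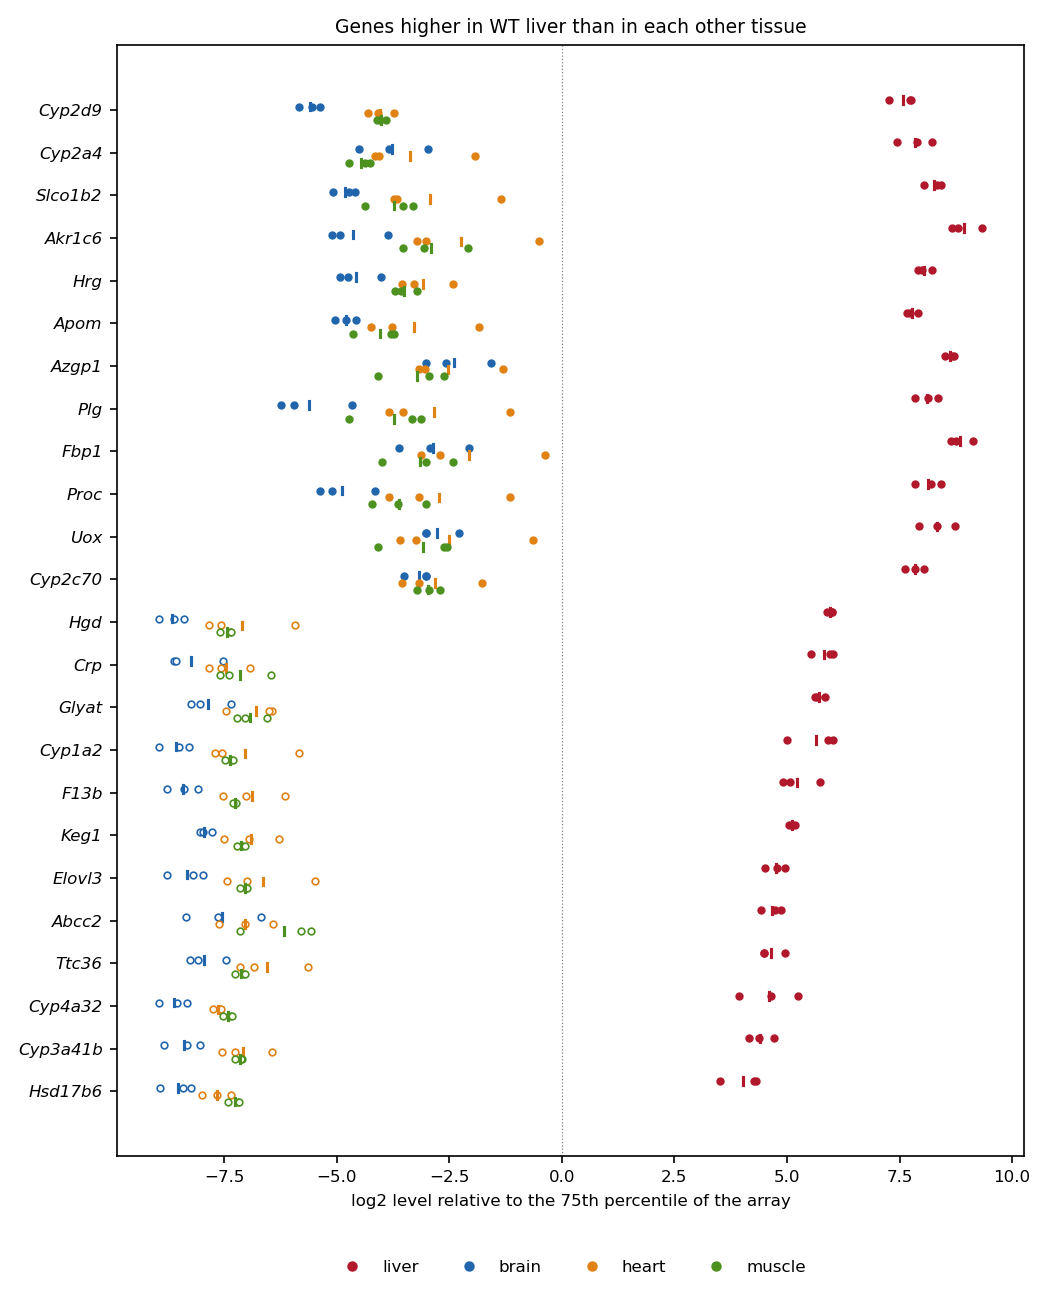
Levels of the 12 leading genes measured in all tissues (*Cyp2d9* to *Cyp2c70*) and the 12 leading genes above background only in the liver (*Hgd* to *Hsd17b6*) on the 12 WT arrays. Each point is 1 mouse, the tick is the mean of the tissue, the x axis is the log2 level (0 is the 75th percentile of an array), and open points mark a tissue that was not well above background on any of its 3 arrays. The livers of *Cyp2d9* sit between 7.27 and 7.76 and its other arrays at -3.74 or below.

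Promoters of these genes are shown with the letters that hepatocyte transcription factors of the HNF4 and C/EBP families are known to bind. RefSeq (GRCm38.p6) promoters of 20 of the 24 genes were used here. Each was searched on both strands for the letters CAAAGTCCA (HNF4) and TTGCNNAA (C/EBP), and on the strand of the gene for TATAAA within 40 bases of the start. Of the 20, 7 held at least 1 of these within 150 bases before the start. The 150 bases before the start are given for 4 genes, 5′ to 3′ on the strand of the gene, with the matching letters in capitals. *Cyp2c70* (chr19:40187287-40187436, minus strand) holds the HNF4 letters at -64 to -56 and *Cyp3a41b* (chr5:145584731-145584880, minus strand) at -95 to -87. *Cyp2a4* (chr7:26307042-26307191, plus strand) holds the C/EBP letters at -70 to -63 and TATAAA at -28 to -23, and *Hgd* (chr16:37580003-37580152, plus strand) the C/EBP letters on the opposite strand at -49 to -42. Positions count back from -1, the last base before the start.
Cyp2c70: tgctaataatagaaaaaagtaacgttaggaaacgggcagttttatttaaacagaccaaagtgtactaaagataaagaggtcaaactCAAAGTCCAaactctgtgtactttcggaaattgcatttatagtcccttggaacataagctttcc
Cyp3a41b: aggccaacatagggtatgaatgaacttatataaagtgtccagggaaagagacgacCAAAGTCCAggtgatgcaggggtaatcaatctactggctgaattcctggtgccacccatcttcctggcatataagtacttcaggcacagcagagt
Cyp2a4: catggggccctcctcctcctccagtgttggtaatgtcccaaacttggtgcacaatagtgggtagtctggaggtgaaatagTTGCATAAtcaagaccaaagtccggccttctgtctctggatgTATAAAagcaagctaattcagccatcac
Hgd: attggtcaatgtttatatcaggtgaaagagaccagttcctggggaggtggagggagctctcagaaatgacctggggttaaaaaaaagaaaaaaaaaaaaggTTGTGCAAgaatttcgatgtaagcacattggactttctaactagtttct
Among 250 bases before the start, the HNF4 letters stood in 0.384% of all 32851 promoters, in 1.64% of the 976 promoters of genes higher in the liver by at least 3 log2 units, and in 0.397% of the 504 promoters of genes lower by as much. The C/EBP letters stood in 9.56%, 15.8% and 6.15% of them, and TATAAA in 2.31%, 6.05% and 1.98%. Most promoters of liver genes held none of these letters, and a match is a description of the sequence, not a bound site.

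Genes written down as hepatocyte genes were nearly all higher in the liver. All gene lists used here were written with earlier results of these data known, so their shares are a description and not an independent test. The hepatocyte and zonation lists, counted here with the male-biased, female-biased and fetal liver lists, had 347 members, of which 335 were tested. Of these, 301 (89.9%) were higher than in each other tissue and 3 were lower, *Cux2* of the female-biased list and *Igf2* and *Gpc3* of the fetal list. Of the 335, 67 had passed the filter only through the liver, and of the other 268, 87.3% were higher, beside 18.2% of the 17081 genes of the whole array that passed through another tissue. The filter on all 12 arrays left 163 of the list genes called higher, but it also removed list genes from the test. The plot of calls by list gives each list beside all genes.

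**Figure D2:**
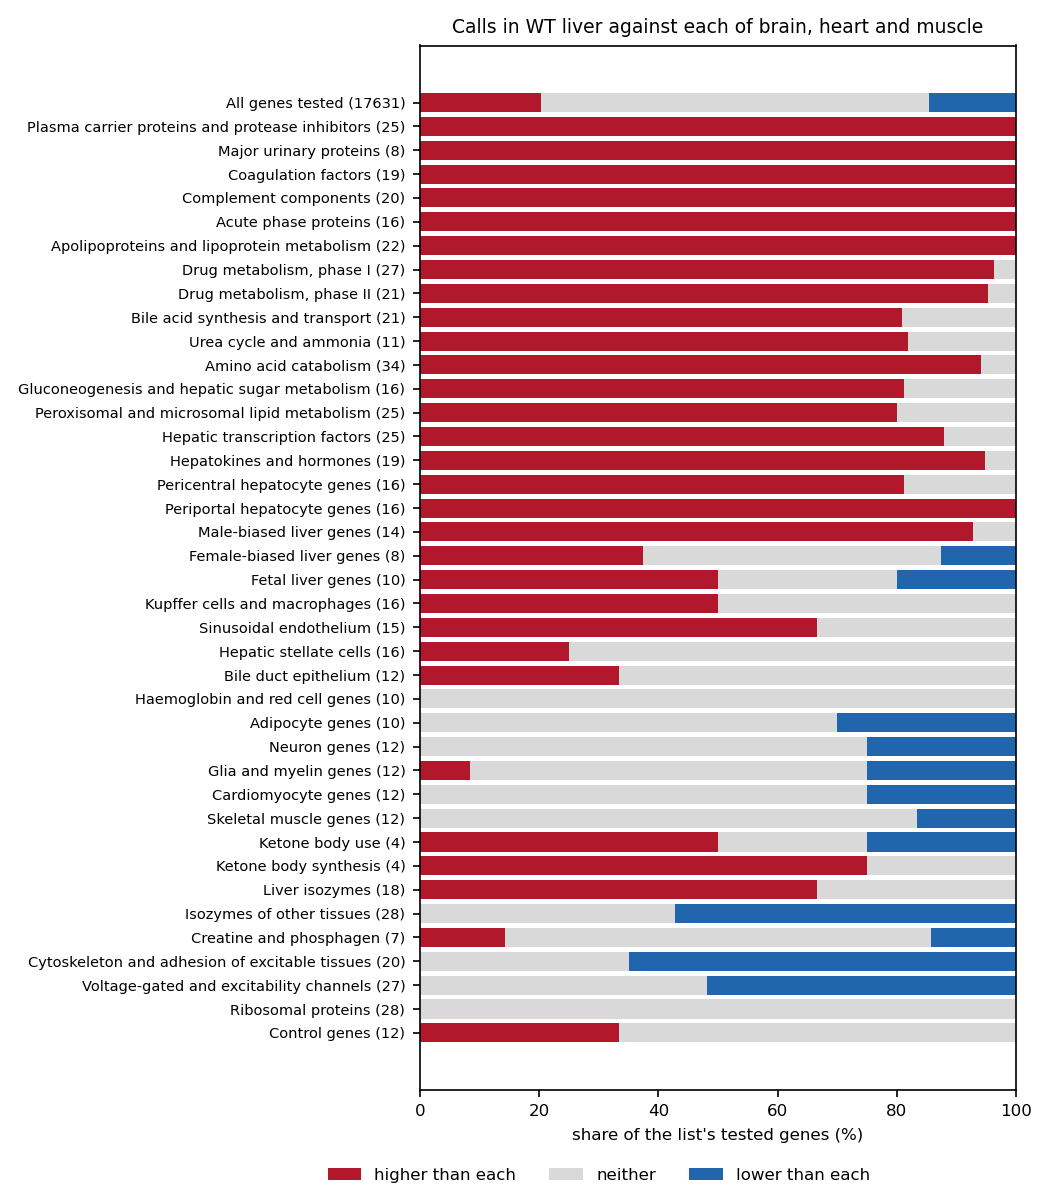
Share of each list's tested genes (number in brackets) that were higher than each other tissue (red), lower than each (blue) or neither (grey) in WT liver, in percent. The upper bar is all 17631 genes, with 20.2% higher and 14.6% lower.

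Secreted plasma proteins formed the most uniform group. All 25 plasma carriers and protease inhibitors tested, all 19 coagulation factors, all 20 complement components, all 16 acute phase proteins, all 22 genes of apolipoproteins and lipoprotein metabolism and all 8 major urinary proteins were higher in the liver than in each other tissue. The median smallest differences of these lists were 8.88, 10.01, 8.2, 7.2, 7.28 and 7.40 log2 units, against -0.77 over all genes tested. *Alb* (NM_009654), serum albumin, lay at 9.08, 9.85 and 9.17 in the livers. It lay at 0.57, -5.80 and -6.04 in the brains, at -0.01, 2.95 and -0.46 in the hearts and at -0.15, -1.02 and 0.49 in the muscles. The livers stood above every other array, while the WT1 brain and the WT2 heart were the highest of their tissues, and the differences were 13.12, 8.54 and 9.59 with a standard error of 1.48 (adjusted p = 8.8e-06, 0.00044 and 0.00017). *Apob* (NM_009693), the structural protein of very low density lipoprotein, lay at 8.35, 8.25 and 8.05 in the livers. Its muscles were not above background, at least 10300-fold lower, and only single brain and heart arrays were above it. *Apoa1* (NM_009692), the main protein of high density lipoprotein, lay at 8.02, 8.54 and 8.29 in the livers and at -2.36 or below elsewhere.

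Among the clotting factors, *Fgb* (NM_181849), the beta chain of fibrinogen, lay at 8.77, 9.47 and 8.75 in the livers and was 1100-fold above the heart and 2080-fold above the muscle. The smallest difference on this list was 1.93 for *Pros1*, protein S, which was measured on every array of every tissue. The complement list showed the same contrast between components. *Hc*, complement C5, lay at 8.23, 8.26 and 7.68 in the livers and at -1.21 or below in the other tissues. *C3* (NM_009778), the central component, lay at 8.98, 9.70 and 8.99 in the livers but also at 6.48, 6.64 and 7.02 in the hearts and at 6.81, 5.90 and 5.92 in the muscles. It was higher in the liver by 2.51 (standard error 0.39, adjusted p = 0.00018) against the heart.

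Other secreted proteins also had signal in a second of these tissues. *Ttr* (NM_013697), transthyretin, is made by the choroid plexus as well as by the liver, and it lay at 5.87, 5.70 and 4.43 in the brains against 8.44, 9.06 and 8.42 in the livers. The difference from the brain was 3.30 and that from the heart 9.54. *Apoe* (NM_009696), made by astrocytes and macrophages too, lay at 8.89, 9.63 and 8.91 in the livers and at 7.78, 7.32 and 7.52 in the brains. It had the smallest difference of the apolipoproteins, 1.60 (standard error 0.33, adjusted p = 0.00097). *Hp* (haptoglobin, which binds free haemoglobin) lay at 8.53, 9.22 and 8.39 in the livers and at 5.73, 4.03 and 4.32 in the muscles. Its muscles ran in the order of *Adipoq*, a fat cell gene given below, and the part of fat cells was not tested. *Hamp* (NM_032541), the hormone hepcidin that limits iron uptake, lay at 8.10, 8.58 and 8.2 in the livers. In the hearts it lay at -4.56, 3.60 and 3.65, so that the WT1 heart stood apart and the difference of 7.40 carried a standard error of 1.73 (adjusted p = 0.0035). The same WT1 heart was low for *Myl7* (-2.41, against 6.64 and 7.47) and *Myl4* (1.60, against 8.56 and 9.34), light chains of atrial myosin. The major urinary proteins, pheromone carriers of male mice, share much of their sequence, so that the signal of a single member is uncertain. *Mup20* (NM_001012323) lay at 8.39, 8.90 and 8.23 in the livers and at 2.84, 0.71 and 2.59 in the muscles. It was also higher in the 2 arrays that stood apart, the WT1 brain (-0.16, against -5.63 and -5.66) and the WT2 heart (2.05, against -1.26 and -0.64). Whether its signal outside the liver comes from the tissue itself was not tested.

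Enzymes that modify drugs and steroids were higher in the liver with few exceptions. Of 27 phase I genes tested, 26 were higher (median smallest difference 10.25), and of 21 phase II genes 20 were (7.77). *Cyp2c29*, *Cyp2c50* and *Cyp2c54*, P450 enzymes of drug and steroid oxidation, had smallest differences of 12.13, 12.29 and 12.32, and that of *Cyp3a25*, whose muscles were not above background, was at least 11.98, although close relatives within these families may hybridize to the same probe. *Ugt2b5* (NM_009467), which joins glucuronic acid to steroids, lay at 7.81, 7.82 and 7.50 in the livers and was above background on 1 array of each other tissue. *Cyp2e1* (NM_021282), the ethanol-oxidizing P450, lay at 8.53, 9.22 and 8.52 in the livers. Its muscles lay at 6.47, 2.94 and 5.36, which left a difference of 3.83 (standard error 1.18, adjusted p = 0.015). The muscles varied far more than the livers for this gene, in the same order as *Adipoq* (adiponectin, made by fat cells), which lay at 5.62, 1.99 and 3.93 in them. The part of fat cells in this difference was not tested. *Nat1* (an N-acetyltransferase) was not called, with a smallest difference of 0.68.

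Bile acid genes were mostly higher, with some transporters outside. Of 21 genes tested, 17 were higher (median smallest difference 5.82). *Cyp7a1* (NM_007824), the rate-limiting enzyme of bile acid synthesis, lay at 3.96, 2.44 and 3.42 in the livers and was not above background on any other array (at least 828-fold, 451-fold and 336-fold higher than brain, heart and muscle). *Cyp8b1*, which sets the share of cholic acid, lay at 2.38, 2.73 and 3.38 and was not above background elsewhere either. *Abcb11* (NM_021022), the bile salt export pump, lay at 7.29, 6.72 and 6.55. Both synthesis enzymes thus had detectable transcript in the liver alone. *Abcb4* (NM_008830), the phospholipid exporter of the bile canaliculus, lay at 7.45, 7.14 and 6.82 in the livers and at 6.67, 6.46 and 6.6 in the muscles (difference 0.56, standard error 0.25, adjusted p = 0.077). *Slc51a* and *Slc51b*, the subunits of the basolateral bile acid exporter, were not higher, and *Slc51a* was not above background in any liver. *Slc10a1*, the sodium-coupled bile acid carrier, depended on the probe. The brighter probe, which represented the gene, lay at 8.25, 9.04 and 8.28 in the livers and at 8.08 to 9.47 in the other tissues. Whether this probe measures the gene was not tested. The other probe lay at 5.69, 5.78 and 6.49 in the livers and at -4.70 or below elsewhere, and was called higher, with a smallest difference of at least 11.10 because its brains and muscles were not above background.

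Nitrogen metabolism followed the same pattern. *Cps1* (NM_001080809), which fixes ammonia into carbamoyl phosphate, lay at 6.89, 7.05 and 7.27 in the livers, at -5.23, -5.67 and -5.39 in the brains and at -3.83 or below in the hearts. *Otc* (NM_008769), the next enzyme, lay at 7.05, 6.68 and 6.52 in the livers and was not above background in the brain or the muscle (at least 9190-fold and 3740-fold higher). *Arg1* (NM_007482), which releases urea, lay at 7.27, 7.55 and 7.12. These enzymes stood more than 11 log2 units above every other tissue, while the middle of the cycle was closer. *Ass1* (NM_007494), argininosuccinate synthase, lay at 8.70, 9.18 and 8.55 in the livers and at 3.25, 2.62 and 2.45 in the brains, a difference of 6.04 (standard error 0.26, adjusted p = 2.5e-09). In all, 9 of 11 urea cycle and ammonia genes were higher. *Glul* (NM_008131), glutamine synthetase, was not, with 5.48, 6.6 and 5.92 in the livers and 6.08, 5.90 and 5.90 in the brains (difference 0.04, adjusted p = 0.91). It lies in the hepatocytes around the central vein and in astrocytes. *Slc25a15*, the mitochondrial ornithine carrier, was split among the livers, at -4.17, 1.18 and -0.09. Of 34 genes of amino acid breakdown, 32 were higher (median smallest difference 9.02), among them *Hpd* (a dioxygenase of tyrosine breakdown, 12.26) and *Mat1a* (which makes S-adenosylmethionine, at least 12.09, since its brains and muscles were not above background). *Got1*, the aspartate aminotransferase of the cytosol, was 1.59 lower than in the heart (adjusted p = 0.0015), and *Dao* (D-amino acid oxidase) was above background in the brain but not in the liver.

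Sugar metabolism combined liver enzymes that were higher with isozymes of other tissues that were lower. *G6pc* (NM_008061), glucose-6-phosphatase, which lets glucose leave the cell, lay at 7.51, 6.55 and 7.81 in the livers and at -2.51 or below elsewhere. *Pck1* (NM_011044), the entry to gluconeogenesis, lay at 8.42, 8.81 and 8.09 in the livers, and its muscles were the nearest at 4.93, 0.78 and 2.95 (difference 5.56, standard error 1.19, adjusted p = 0.0018), again in the order of *Adipoq*. Of 16 genes of gluconeogenesis and hepatic sugar metabolism, 13 were higher (median smallest difference 5.99), and *Slc37a4*, *Pck2* and *Pfkfb1* were not. *Slc2a2* (NM_031197), the glucose carrier of hepatocytes, lay at 6.52, 6.01 and 5.93, while *Slc2a4* (NM_009204), the insulin-responsive carrier of muscle and fat, lay at -2.90, -3.84 and -3.46 in the livers and at 7.23 to 8.12 in the hearts and muscles. *Hk1* (NM_001146100), the hexokinase of most other tissues, differed by -1.5 from the muscle (standard error 0.25, adjusted p = 0.00031) and by -5.32 and -5.22 from the brain and the heart. *Pklr*, the liver pyruvate kinase, had a smallest difference of at least 6.95 (hearts and muscles not above background), and *Pkm*, its counterpart, lay at 0.65, 0.98 and 1.05 in the livers and at 5.66 or above elsewhere. *Aldoa*, the aldolase of muscle, lay at 6.72, 6.77 and 6.38, below the 10.16 to 10.28 of the muscles. *Gls2*, the liver glutaminase, lay at 7.58, 7.3 and 6.79 in the livers and had a smallest difference of 4.7, against the brain. Of 18 liver isozymes 12 were higher and 0 lower, with a median smallest difference of 3.48. Of 28 isozymes of other tissues 0 were higher, also at an unadjusted p under 0.05, and 16 were lower. The liver members not called higher included *Pfkl*, *Ldha* and *Acacb*, each measured in every tissue.

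Ketone bodies are a fuel that the liver makes during fasting and other tissues burn. Of 4 ketone synthesis genes 3 were higher (median smallest difference 2.1). Of 4 genes listed for ketone use, 2 (*Bdh1* and *Aacs*, which activates acetoacetate for lipid synthesis) were higher, 1 (*Oxct1*) was lower and *Acat1* was neither. *Oxct1* (NM_024188), the transferase that starts ketone use, lay at 0.84, 0.24 and 0.00 in the livers, at 5.57, 5.16 and 5.42 in the brains, at 8.02, 7.87 and 7.94 in the hearts and at 6.43, 6.79 and 7.25 in the muscles. The groups did not overlap, with all livers below all other arrays and differences of -5.02, -7.58 and -6.46 (standard error 0.27, adjusted p = 1.5e-08, 1.1e-09 and 3.1e-09). *Bdh1*, which interconverts the ketone bodies and serves both directions, was 2.01 higher than in the heart (adjusted p = 0.018). *Acat1*, also shared, differed by -1.01 from the heart and was not called. Other lipid genes were less uniform than the preceding groups. Of 25 genes, 20 were higher (median smallest difference 2.59), among them *Cpt1a*, the liver form of the gate to mitochondrial fat oxidation, at 6.76, 6.59 and 6.62. *Acot1*, *Me1*, *Pnpla3*, *G0s2* and *Cidec* were not. Of 7 creatine genes 1 was higher, 1 lower and 5 neither. *Gamt*, which completes creatine synthesis, lay at 7.31, 7.05 and 6.92 and was higher than each tissue, and *Slc6a8*, which imports creatine, lay at 2.34, 1.41 and 1.30 and was lower than each. *Gatm*, the first step of the synthesis, and the creatine kinases were neither.

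The transcription factors of hepatocytes were higher in the liver for 22 of 25 tested (median smallest difference 3.28). *Hnf4a* (NM_008261), a nuclear receptor that binds most active hepatocyte genes, lay at 7.81, 7.88 and 7.31 in the livers and was above background on 1 brain array, all hearts and 2 muscles, at -2.16 or below. *Nr1h4*, the bile acid receptor FXR, lay at 6.41, 5.83 and 5.84 and *Cebpa* at 4.75, 5.58 and 5.53, with smallest differences of 8.03 and 4.78. These 3 factors differed from every tissue by more than the spread among the arrays. *Foxa1* and *Foxa2* (NM_001291067), pioneer factors of the gut and liver, were above background in the brain as well as in the liver, with differences from the brain of 6.14 and 7.61. *Gata4* and *Gata6* lay between tissues, with differences of -2.33 and -2.19 from the heart, and higher than in the brain and the muscle. *Prox1* was 0.50 above the heart on average.

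Hormones and receptors of the liver were higher for 18 of 19 genes (median smallest difference 4.52). *Igf1* (NM_010512), through which growth hormone acts on the body, lay at 7.10, 7.09 and 6.85 in the livers and at 2.55, 1.78 and 2.60 in the muscles, its nearest tissue, and all 4 of its probes were called higher. *Fgf21*, a fasting hormone, lay at 1.27, 0.98 and 0.67 and was not above background in other tissues. *Gcgr*, the glucagon receptor, had a smallest difference of 6.85. The receptors for growth hormone and insulin were shared with the other tissues. *Ghr* was 1.17 above the muscle (standard error 0.28, adjusted p = 0.0034), and *Insr* was 0.92 above the heart (standard error 0.32, adjusted p = 0.028), with 1 of its 3 probes called. *Hjv* (hemojuvelin, the coreceptor that raises hepcidin) was the exception, with differences of -3.93 from the muscle and -1.77 from the heart.

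Hepatocytes differ along the path of the blood, and genes of both ends were higher. All 16 periportal genes were (median smallest difference 6.54), and 13 of 16 pericentral genes were (3.53). *Cyp2f2* (NM_007817), a periportal P450, lay at 8.53, 8.99 and 8.43 in the livers and was 7.04 above the muscle. The pericentral genes not called were *Glul*, *Slc1a2* and *Axin2*. *Slc1a2* (NM_011393), the glutamate carrier of astrocytes and of the hepatocytes around the central vein, lay at 4.37, 4.12 and 4.02 in the livers and at 4.16, 3.49 and 3.61 in the brains. Male-biased liver genes were higher for 13 of 14, led by *Hsd3b5* (a steroid reductase) at 7.50, 7.15 and 6.96. *Moxd1* was not, and lay at -1.49 in WT1 against -5.14 and -5.85 in WT2 and WT3. Of 8 female-biased genes tested, 3 were higher, *Cyp3a16*, *Cyp2b9* and *Acot3*, *Cux2* was lower, and 4 more members were on the array but not tested. Probes for *Cyp3a16* may also bind its relatives. Of 10 fetal liver genes, 5 were higher, among them *Afp* (alpha-fetoprotein) at -0.20, -0.98 and -0.67 in the livers, at -5.11, -4.45 and -5.18 in the brains and lower still elsewhere. *Igf2* and *Gpc3* were lower than in each tissue, and *H19* differed by -10.16 from the muscle.

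The markers of other liver cells were mixed. Of 59, 26 (44.1%) were higher and 0 lower, beside 20.2% and 14.6% of all genes. Among the 54 that passed the filter through another tissue, 21 (38.9%) were higher, beside 18.2% of all such genes. With the slide as a block 16 were higher, and with the filter on all 12 arrays 12 were. In these settings the higher probes of the whole array numbered 4900 and 4913, against 7033 in the main fit. The filter left 25201 of the 38539 probes to test and also removed some of these markers. Of 16 genes of Kupffer cells and macrophages, 8 were higher. *Clec4f* (NM_016751), a lectin of Kupffer cells, lay at 3.84, 4.41 and 4.35 in the livers and at -3.05, -3.27 and -3.50 in the hearts, and was not above background in brain or muscle. *Vsig4* and *Cd5l* were higher than the heart by 3.17 and 5.08. Macrophage genes that microglia and heart macrophages also use were not higher: *Csf1r* lay at 4.77, 5.20 and 4.89 in the livers, at 5.03, 4.76 and 4.73 in the brains and at 4.85, 5.16 and 4.85 in the hearts. Of 15 genes of the sinusoidal endothelium, 10 were higher, among them *Clec4g* (NM_029465), at 5.32, 5.40 and 5.23, and *Oit3* at 2.55, 2.11 and 2.49. *Stab2*, a hyaluronan receptor, was 1.05 above the muscle (standard error 0.39, adjusted p = 0.039). For stellate cells 4 of 16 (25%) were higher, near the 20.2% of all genes. These were *Lrat* (NM_023624, which makes retinol esters), *Colec10*, *Hgf* and *Ngfr*. *Des* and *Dcn*, shared with muscle cells and fibroblasts, differed by -9.45 and -1.74 from the muscle. For bile ducts 4 of 12 (33.3%) were higher, among them *Slc10a2*, *Spp1* and *Pkhd1*. *Krt19*, a keratin of duct cells, lay at -0.36, -1.17 and -1.18 in the livers and at -1.67, 0.06 and 0.72 in the hearts.

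Markers of other tissues show what else the samples held. The summed linear levels (1 being the 75th percentile) of 12 skeletal muscle genes ran from 1.39 to 1.49 in the livers and from 6540 to 6720 in the muscles, and 4 of them were not above background in any liver. Those of 12 cardiomyocyte genes ran from 1.66 to 2.64 in the livers and from 3160 to 5430 in the hearts. Those of 12 neuron genes ran from 5.97 to 12.4 in the livers and from 440 to 648 in the brains, and 5 were not above background in any liver. Genes of muscle, heart and neurons thus had little summed signal in the livers, with exceptions among single genes. The 12 genes of glia and myelin were different, with sums of 247 to 409 in the livers and 173 to 250 in the brains, and 3 of them were not above background in any liver. *Aldh1l1* was the brightest of them in the livers. *Syt1* (NM_001252341), a calcium sensor of synaptic vesicles, lay at 1.66, 1.87 and 2.03 in the livers, with a difference of -5.01 from the brain, and was not above background in heart and muscle. *Aldh1l1* (NM_027406), used as a marker of astrocytes and also a folate enzyme of hepatocytes, lay at 8.17, 8.58 and 7.83 in the livers and at 4.41, 4.12 and 4.24 in the brains. The 10 red cell genes summed to between 1010 and 1150 in the livers, 1960 to 3190 in the hearts, 451 to 509 in the brains and 557 to 909 in the muscles, and 0 of them were called higher or lower, also at an unadjusted p under 0.05. The 10 adipocyte genes summed to between 380 and 500 in the livers, mostly through *Car3*, to 353 to 1460 in the muscles, 282 to 305 in the hearts and 3.43 to 3.63 in the brains. *Adipoq* was not above background in any liver or brain. The part of blood and fat cells in the results was not tested.

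Genes called above the mean of the other tissues but not above 1 of them show why each tissue was tested. Above the heart and the muscle but not above the brain stood 514 genes, above the brain and the muscle but not the heart 722, and above the brain and the heart but not the muscle 490. Only 107, 69 and 32 of these were below that last tissue at an adjusted p under 0.05. The others missed the threshold in both directions, which does not show equal levels. *Car3* (NM_007606), carbonic anhydrase 3, had the largest difference from the mean among all these genes. It lay at 8.52, 8.91 and 8.5 in the livers, at 8.54, 7.29 and 7.48 in the muscles, at -1.62, 2.44 and 2.35 in the hearts and at -2.52, -3.32 and -3.25 in the brains. The difference from the muscle was 0.87 (standard error 0.86, adjusted p = 0.40) and the ranges overlapped. *Dsc2* (NM_013505), a desmosomal cadherin, lay at 2.29, 2.28 and 2.27 in the livers and at 2.20, 2.17 and 2.14 in the hearts, more than 7 units above brain and muscle. *Tcf21* lay at 0.63, -0.15 and 0.84 in the livers and at 0.38, 1.03 and -0.07 in the hearts. *Mal2* (NM_178920), which carries membrane to the apical side of polarized cells, lay at 4.17, 3.77 and 3.61 in the livers and at 4.77, 4.13 and 4.44 in the brains. *Mfsd2a* (NM_029662), the carrier of lysophosphatidylcholine with docosahexaenoic acid at the blood-brain barrier, lay at 3.87, 4.17 and 3.12 in the livers and at 1.93, 1.89 and 2.03 in the brains. All livers lay above all brains, but the difference of 1.77 had a standard error of 0.86 and missed the threshold (adjusted p = 0.085). That standard error rests on 1 spread shared by the 4 tissues. For *Mfsd2a* the SD was 0.54 in the livers and 0.07 in the brains, but 2.22 in the hearts and 0.9 in the muscles. The plot of genes not above each tissue shows these by array.

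**Figure D3:**
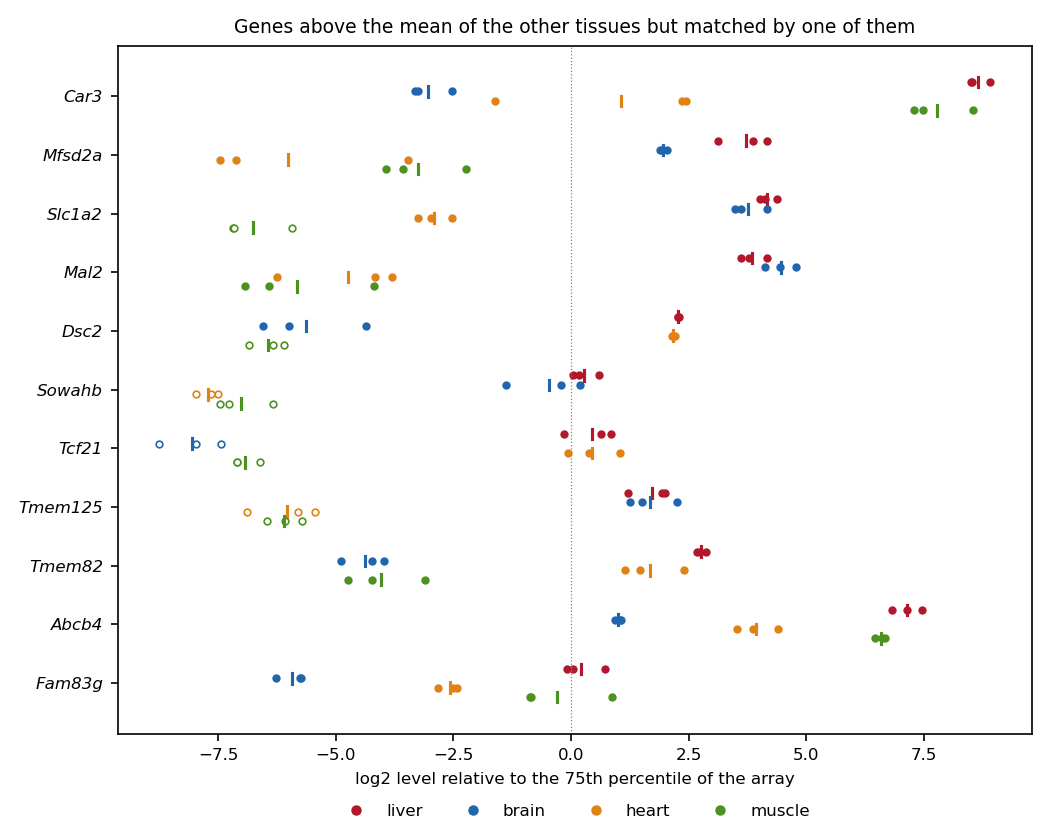
Levels of genes above the mean of the other WT tissues but not above each of them, on the 12 WT arrays, with 1 point per mouse, the tissue mean as a tick and open points for a tissue not well above background on any array. The x axis is the log2 level (0 is the 75th percentile of an array). *Car3* in the liver overlaps the muscle, and *Dsc2* in the liver lies close to the heart.

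Genes known from excitable tissues made up part of those lower in the liver than in each tissue. Over 5 lists, which also hold ketone, creatine and isozyme genes, 45 of 82 (54.9%) were lower and 3, *Bdh1*, *Aacs* and *Gamt*, were higher, beside 14.6% and 20.2% of all genes. Of 12 neuron, 12 cardiomyocyte and 12 skeletal muscle markers, only 3 (25%), 3 (25%) and 2 (16.7%) were lower than in each tissue. *Fabp3* (NM_010174), the fatty acid carrier of heart, muscle and brain, lay at -4.04, -3.29 and -4.10 in the livers, at 5.42, 4.65 and 4.99 in the brains, at 8.18, 7.80 and 8.46 in the hearts and at 6.84, 7.83 and 8.01 in the muscles. It was measured on every array and the differences were -8.83, -11.96 and -11.37 (standard error 0.36, adjusted p = 1.5e-09, 3e-10 and 3.3e-10). Its counterpart *Fabp1*, the carrier of hepatocytes, was higher than each tissue, by 7.84 against the heart as the nearest. *Cpe* (carboxypeptidase E, which trims prohormones) lay at -0.73, -1.30 and -1.84 in the livers and between 6.62 and 8.34 elsewhere, and *Ak1*, the adenylate kinase of the cytosol, at -1.69, -2.09 and -1.84 against 4.79 or more. These genes had transcript above background in every liver.

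Others were not detected in the liver. *Rbfox1* (NM_021477), a splicing factor of neurons and striated muscle, lay at 5.80, 5.96 and 5.91 in the brains, at 4.58, 4.48 and 4.08 in the hearts and at 7.14, 6.76 and 7.18 in the muscles. No liver array was above background, so that these tissues exceeded the liver at least 3750-fold, 1310-fold and 8220-fold. *Eef1a2*, the elongation factor isoform of neurons and striated muscle, was at least 979-fold lower in the liver than in the brain. *Sptb*, beta-spectrin, was at least 373-fold lower. Channels and pumps of excitability were lower for 14 of 27 genes and higher for 0, and the median difference from the lowest other tissue was -0.63, against 0.76 over all genes. *Cacna2d1*, a calcium channel subunit, differed by -7.65 from its nearest tissue. Cytoskeleton and adhesion genes were lower for 13 of 20 (median difference from the lowest other tissue -2.22), among them *Mapt* (tau), *Ank2* and *Tubb3*. The plot of lower genes shows 17 genes by array. By contrast, of 28 ribosomal protein genes 0 were higher and 0 lower (1 and 0 at an unadjusted p under 0.05, median smallest difference -0.07), and of 12 control genes 4 were higher, among them *B2m*, *Tbp* and *Ppia*. *Actb*, a control gene, had mean levels of 8.13 (liver), 8.02 (brain), 8.05 (heart) and 8.04 (muscle).

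**Figure D4:**
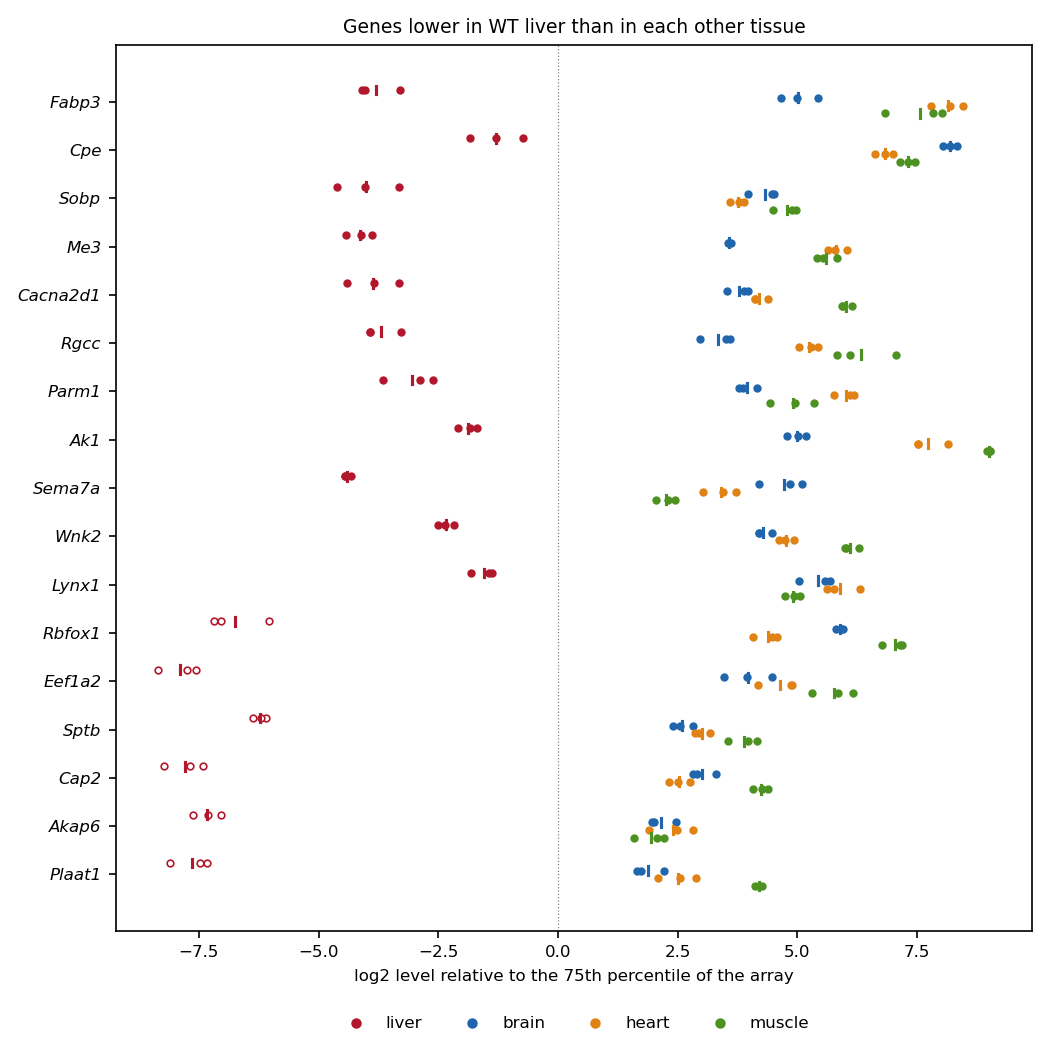
Levels of 17 genes lower in WT liver than in each other tissue, 11 measured in all tissues (*Fabp3* to *Lynx1*) and 6 not well above background on any liver array (open points, *Rbfox1* to *Plaat1*). Each point is 1 mouse, the tick is the mean of the tissue, and the x axis is the log2 level (0 is the 75th percentile of an array). The livers of *Fabp3* sit between -4.10 and -3.29, below its 9 other arrays.

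The 3 livers were close to each other in most of their own genes. Over 3563 genes higher in the liver and measured on all 3 livers, the median range among them was 0.60 log2 units and the 95th percentile 1.43. The range reached 2 units in 52 genes and 3 units in 9. WT1, the older mouse, was the liver that stood apart in 31 of the 52, WT2 in 8 and WT3 in 13. *Akr1d1* (NM_145364), a reductase of bile acid and steroid synthesis, lay at -3.04 in WT1 and at 2.35 and 2.65 in WT2 and WT3. *Obp2a*, a lipocalin, lay at 3.94 in WT1 and at 0.51 and -0.67 in the others. *Sephs2* (selenophosphate synthetase) lay at -1.19, 3.72 and 3.01, and *Tm4sf4*, a membrane protein, at 1.05, 5.13 and 4.4. Each of these genes was called higher by the rule, which compares tissue means. For *Akr1d1* and *Obp2a* even the outlying livers lay above all arrays of the other tissues. The WT1 liver of *Sephs2* (-1.19) lay below the WT1 and WT2 muscles (-0.98 and -0.95). *Akr1d1*, *Sephs2* and *Obp2a* lost their call with the slide as a block. The KI livers have the same ages. In them *Akr1d1* lay at -1.69 in KI1 and at 1.67 and 1.34 in KI2 and KI3, and *Obp2a* at 4.21 in KI1 and at -1.61 and -2.98 in the others. In 20 of the 31 genes where WT1 stood apart, KI1 lay outside KI2 and KI3 on the same side, and in 4 on the opposite side. The 52 genes were picked by their range in these WT livers, and the same counts were not made over all 3563 genes. In the fit with array weights the WT1 liver had the lowest weight of the livers (0.35, against 0.898 and 1.79). Each genotype had 1 mouse of 5 months, so that age and animal cannot be told apart. Acute phase genes varied as well, with *Saa1* at 7.60, 5.45 and 5.19 in the WT livers and 6.73, 7.44 and 8.34 in the KI livers. The plot of plasma transcripts and livers shows both patterns.

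**Figure D5:**
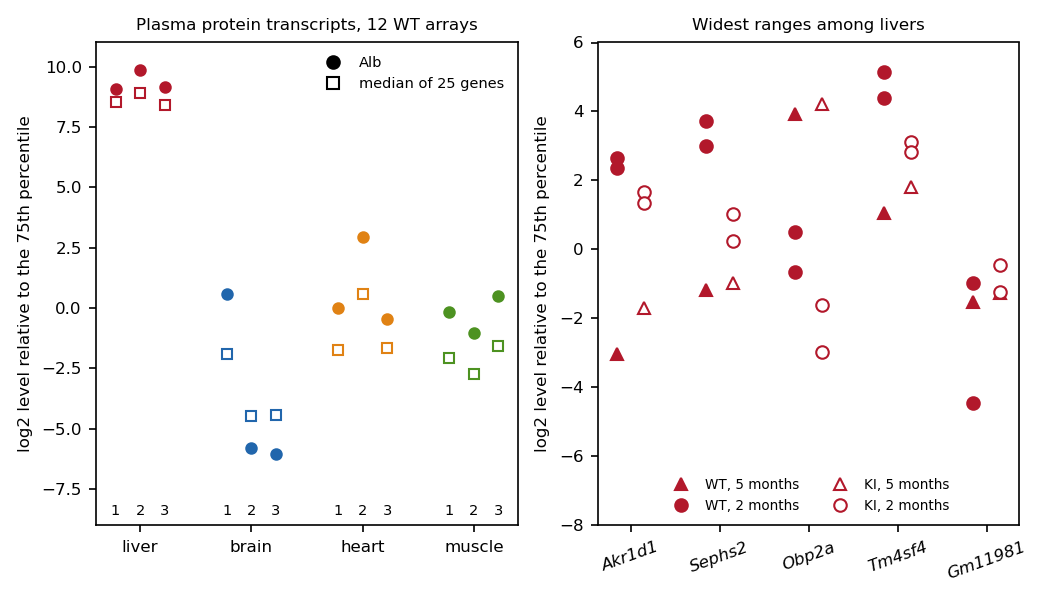
Left, *Alb* (filled circles) and the median of 25 plasma protein genes (open squares) on the 12 WT arrays, with the mouse number under each point: the WT1 brain and the WT2 heart lie above the other arrays of their tissue. Right, the 5 liver genes with the widest range among livers, in WT (filled) and KI (open) mice of 5 months (triangles) and 2 months (circles). Both y axes are log2 levels (0 is the 75th percentile of an array).

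The liver calls recurred in mice with the knockin allele. Of the 7009 probes that were higher in WT liver and were tested in *Rap1* KI/KI mice, 90.9% were called higher there too, and of 4624 lower probes 87.8% were called lower. In the other direction, 80.3% of the higher and 65.8% of the lower KI calls were WT calls, and 0 calls were opposite. KI mice gave 8293 higher (20.9%) and 6263 lower (15.8%) probes of 39723. The WT and KI arrays share slides, and the mice are different animals. *Mfsd2a* and *Tmem82*, which missed the threshold in WT mice, were called higher in KI mice, and *C3* and *Spp1*, called in WT mice, were not called there. A test of the difference between the genotypes was not made.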

How the data were processed

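RNA of 24 samples (4 tissues, 6 mice) was measured on 1-color Agilent arrays, and 12 WT arrays were used here, with the 12 KI arrays for the recurrence of calls, for single values beside those of WT mice and in an alternative fit. RNA of brain and liver was extracted with the RNeasy Mini Kit and glass beads, and that of heart and muscle with a fibrous tissue kit and zirconia beads. The authors labelled 200 ng of total RNA with Cy3, and the scanner software, Feature Extraction 12.0.3.1 per the file headers, produced the deposited intensity of each spot, which is corrected for background. A second deposited table holds scores, which the authors made by scaling the log10 signals of each array, controls included, to mean 0 and SD 1. Recomputed scores differed from it by at most 0.005, after rounding, on 24 arrays, and it served as an alternative.

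Here, 3671 control spots were left out, the log2 of the processed signal was reduced by that of the 75th percentile of its array, and 59305 spots were averaged to 55681 probes. Of these, 28331 carried the name of 1 of 21368 genes through the RefSeq table of GRCm38.p6, and 27350 stayed unnamed. Probes well above background on all 3 arrays of at least 1 tissue were tested in limma 3.58.1 (R 4.3.3) with a mean per tissue, contrasts of the liver with each other tissue and with their mean, and Benjamini-Hochberg adjustment over 38539 probes per contrast. Every adjusted p in the text is from this fit. Where a tissue was not well above background on any of its 3 arrays, the fold is a lower bound, taken against the dimmest probe called well above background on each array. No probe was saturated. The number of arrays limits the precision. Genes with several tested probes numbered 4795, and of the 866 of these called higher, 63.9% had all probes higher and 21 had a probe called lower.

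All tissues came from the same 3 mice. The deviations of same-mouse arrays from their tissue means correlated at -0.224 to 0.275 over 18 pairs (median 0.039), and those of different mice at -0.238 to 0.256 over 36 pairs. The fit carries no block, and one with the mouse as a block was an alternative. Named genes were those leading by smallest difference, in both directions, those called above the mean of the tissues but not above each, those with the widest range among livers, and the 5 leading and 3 last members of each gene list (all members of short lists). Further list members were named for their known role with their values in view. Members and lists were chosen with earlier results of these data known. Alternatives covered background correction, scaling, the filter, the slide, array weights, a fit of all 24 arrays, other thresholds and leaving out arrays. The normexp correction took the median spot signal (offset 50), since the tables used here hold no mean signal. Some genes are not reported here. Scripts were tested on simulated data.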

Additional observations from a re-analysis of the deposited data

How the results depend on the processing

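Under the alternatives, 375 recomputed counts and shares stayed within 1.5 times the value reported and 11 did not, and no probe was called in the opposite direction. The counts of probes higher and lower than each tissue, 7033 and 4646, became 6845 and 5071 after quantile scaling, 5995 and 3833 after the normexp correction, 6386 and 5003 with the authors' scores 5433 and 3478 at an adjusted p under 0.01 and 7319 and 4810 in a fit of all 24 arrays. With the mouse as a replicate block they were 6906 and 4684, and this block changed no call of a named gene recomputed with it. The filter on all 12 arrays gave 2918 probes lower than each tissue, 5774 lower than the brain, 6603 lower than the heart and 6998 lower than the mean, and of the list genes 163 hepatocyte and 12 non-parenchymal genes higher, because it removed probes absent from some tissues. With the slide as a block, which leaves few contrasts within slides, 4900 probes were higher and 2445 lower than each tissue. Among these, 3921 and 2286 were also calls of the main fit, and the share of higher calls rose to 66.7%. The same block gave 6214 lower than the heart, 5494 lower than the muscle, 7329 lower than the mean and 16 non-parenchymal genes higher, and the cause was not tested. Leaving out a mouse or an array gave 5378 to 7067 higher and 3292 to 4903 lower than each, and 288 to 301 hepatocyte genes. Without the WT1 brain and the WT2 heart, an alternative chosen after seeing the data, the counts were 6583 and 4653. *Terf2ip*, which passed no test, changed sign against the mean after quantile scaling (-0.08), with the scores (-0.01), with the slide block (-0.39) and without the WT1 liver (-0.07), and reached 0.38 without the WT2 liver. The wide-ranging liver genes *Akr1d1*, *Sephs2*, *Obp2a* and *Gm11981* lost their call with the slide block. Their smallest fitted differences changed from 7.31 to 7.19, from 2.94 to 1.35, from 8.31 to 6.36 and from 3.84 to 2.38. *Sephs2*, with a smallest difference of 2.94, lost it also at an adjusted p under 0.01, without all arrays of WT2 (2.08) or WT3 (2.23), and without the WT2 liver (2.01), the WT3 liver (2.36) or the WT3 muscle (2.81), and *Gm11981* without all arrays of WT3 (3.02). With 3 arrays per tissue and probes near background, levels below the bounds were not measured.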
